A study of Mus musculus with 19 samples.

Results

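CBFA2T2 peaks lay at 85 of the 9944 genes that RefSeq types as pseudogene on mouse chromosomes 1 to 19, X and Y. A pseudogene was called marked when the summit of a peak, its highest point, fell inside its annotated span or within 250 bp of it. By this rule 78 pseudogenes were marked in H3.3K27M cells and 27 in H3.3WT cells, 20 of them in both lists, 58 in the H3.3K27M list only and 7 in the H3.3WT list only. The same peaks chose these genes, so their folds and counts are given as a description. The same rule marked 16.5% of all 49943 annotated genes in the H3.3K27M list and 14.1% in the H3.3WT list, 12.0% in both, 4.47% in the H3.3K27M list only and 2.03% in the H3.3WT list only.

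Chromatin immunoprecipitation sequencing (ChIP-seq), which recovers DNA bound by a protein, was done with an antibody against CBFA2T2 in mouse NE-4C cells, a line of neural stem cells that is deficient for p53. Its H3f3a gene, which codes for the histone variant H3.3, had been knocked out. The H3.3K27M cells stably expressed HA-tagged H3.3 with methionine in place of a lysine of its tail, and the H3.3WT cells carried the wild-type protein with the same tag. Both therefore shared the p53 deficiency, the loss of H3f3a and the tag, and the labels do not say whether either line was 1 clone. Each genotype had 1 CBFA2T2 library, with 8272 peaks in H3.3K27M and 6920 in H3.3WT cells, so differences between the genotypes have no replicate check and no test, and the depth of both libraries is unknown. Peak lists hold no RNA, so the neural identity could not be checked against marker genes. The CBFA2T2 library of the Cbfa2t2 knockout was not analysed here.

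CBFA2T2 belongs to the MTG (ETO) family of corepressors, which do not bind DNA by themselves but join transcription factors to histone deacetylases. A pseudogene is a gene copy that has lost its coding function. A processed pseudogene arises when the mRNA of a parent gene is copied back into the genome, usually without introns and without the parent's promoter, and ribosomal protein genes are a well-known source of such copies in mammals. Close copies share sequence with their parents, so reads can match more than one place. How such reads were treated is not given in the sources used here, its part in the results was not tested, and the values at pseudogenes are uncertain to that extent.

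The sequences that the results turn on are starts of parent and neighbour genes, because no sequence of the pseudogenes themselves was used here. They stand for the minority of marked pseudogenes that were copies of a gene with its own start peak or lay at the end of another gene. They come from RefSeq on GRCm38.p6 (mm10), read in the direction of the gene, and the capitals are the 11 bases centred on the H3.3K27M summit. The first 4 are starts of ribosomal protein genes whose copies were marked in the H3.3K27M list only. They are Rps16 (chr7:28350655-28350718, plus strand), Rpsa (chr9:120127735-120127795, plus strand), Rps23 (chr13:90923007-90923107, plus strand) and Rps12 (chr10:23787285-23787385, minus strand).
Rps16: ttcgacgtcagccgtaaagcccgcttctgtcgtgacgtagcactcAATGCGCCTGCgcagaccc
Rpsa: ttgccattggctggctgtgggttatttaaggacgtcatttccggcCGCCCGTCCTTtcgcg
Rps23: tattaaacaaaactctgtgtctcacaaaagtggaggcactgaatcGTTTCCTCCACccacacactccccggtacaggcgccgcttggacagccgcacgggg
Rps12: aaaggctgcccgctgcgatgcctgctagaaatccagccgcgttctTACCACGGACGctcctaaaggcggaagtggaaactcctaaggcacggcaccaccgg

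The other 4 are starts of coding genes whose peak also marked an overlapping or neighbouring pseudogene. Zfp94 (chr7:24316637-24316731, minus strand) lies beside Gm44513 and Exoc4 (chr6:33248992-33249092, plus strand) beside Gm1401, both marked in both lists. The start of Ppfia1 (chr7:144553721-144553821, minus strand) lies inside the span of Gm35626 and that of Ivns1abp (chr1:151344443-151344515, plus strand) inside the span of Gm10138, both marked in the H3.3K27M list only.
Zfp94: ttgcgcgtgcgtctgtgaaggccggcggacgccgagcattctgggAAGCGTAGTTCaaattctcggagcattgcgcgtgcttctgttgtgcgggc
Exoc4: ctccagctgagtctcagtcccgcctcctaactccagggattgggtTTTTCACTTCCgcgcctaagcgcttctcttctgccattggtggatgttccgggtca
Ppfia1: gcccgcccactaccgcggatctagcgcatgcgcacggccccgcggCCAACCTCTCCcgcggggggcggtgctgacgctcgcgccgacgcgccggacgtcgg
Ivns1abp: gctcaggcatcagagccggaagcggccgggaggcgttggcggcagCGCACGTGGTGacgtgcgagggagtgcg

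The 300-base windows around these 8 starts, 250 bases before to 50 after each, were searched on both strands for CANNTG, the E-box bound by helix-loop-helix factors, and for CCGGAAG, a core bound by ETS factors. CANNTG was present in the windows of Rps23, Rps12, Zfp94, Exoc4, Ppfia1 and Ivns1abp, and in 72.3% of all 32851 RefSeq promoter windows of that length. CCGGAAG was present in the windows of Rpsa and Ivns1abp, and in 8.86% of all windows. A match of CANNTG and a match of CCGGAAG cannot overlap, and these matches describe letters only.

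Pseudogenes were rarely marked, and those marked were mostly in the H3.3K27M list. In the H3.3K27M list 0.784% of pseudogenes were marked (95% Wilson interval 0.629 to 0.978%), against 0.272% in the H3.3WT list (0.187 to 0.395%). These intervals, like all intervals below, cover counting error only. Both shares were far under the 31.8% and 27.5% of protein-coding genes marked by the same rule. The rule takes a summit anywhere in the span, so longer genes have more room for one. Of all pseudogenes, 87.3% had spans of up to 3 kb, and the shares were not corrected for span length. Of the 85 marked pseudogenes, 68.2% were marked in the H3.3K27M list only (57.7 to 77.2%), compared with 23.7% of the 9171 other marked genes (22.8 to 24.6%). Among marked protein-coding genes the share was 22.5% of 7778, and among long non-coding RNA genes 29.9% of 1156. Among tRNA genes it was 48.3% of 89. The share in both lists ran the other way, at 23.5% of marked pseudogenes and 67.0% of marked protein-coding genes. These groups were not matched for place or span length. Within 1 kb of a coding gene end lay 14.1% of the pseudogenes marked in H3.3K27M and 64.5% of all H3.3K27M peaks, but 48.5% of the unshared ones. A long span can also be in both lists through separate summits, as at Vmn2r-ps17 below. The part of place and span length in these shares was not tested.

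**Figure D1:**
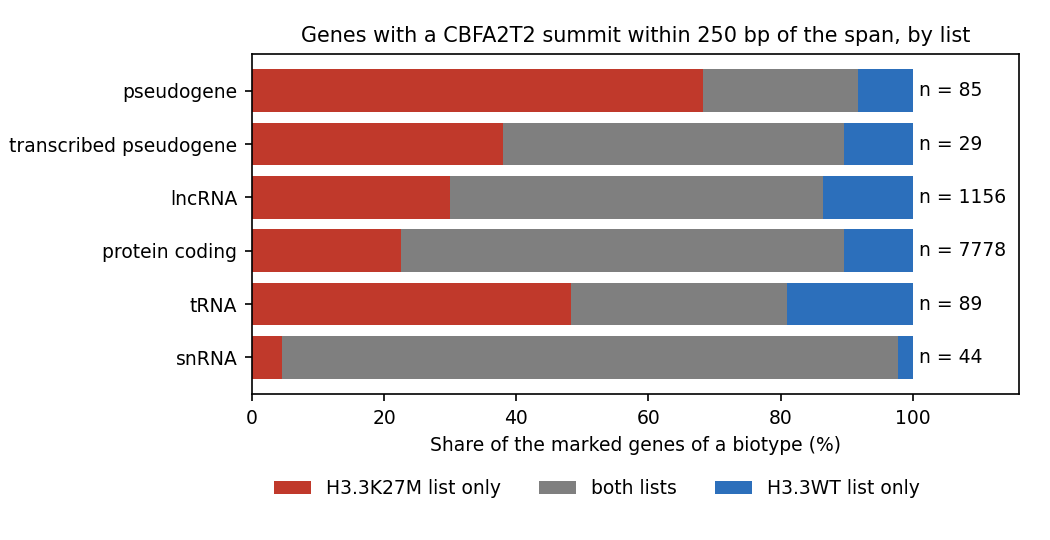
Share of marked genes by RefSeq gene type, divided into genes marked in the H3.3K27M list only, in both lists and in the H3.3WT list only. Pseudogenes had 68.2% in the H3.3K27M list only, protein-coding genes 22.5%.

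Counted by peak, 77 of 8272 H3.3K27M peaks (0.931%, 0.745 to 1.16%) and 26 of 6920 H3.3WT peaks (0.376%, 0.257 to 0.550%) marked a pseudogene. Among peaks that overlapped none of the other list, 58 of 2786 in H3.3K27M (2.08%, 1.61 to 2.68%) and 8 of 1424 in H3.3WT (0.562%, 0.285 to 1.10%) did so. The H3.3K27M list is the longer one. With the same number of peaks taken from both lists by −log10 q, 43 pseudogenes were marked in the H3.3K27M list only and 9 in the H3.3WT list only. With peaks under 5 fold removed from both lists, the counts were 33 and 7. That filter moves pseudogenes between the groups, and of the original 58 and 7, 32 and 2 had a fold of at least 5.

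The peaks at pseudogenes were mostly of moderate height. Fold enrichment is the signal at the peak's highest point over the background that the peak caller estimated, and the deposited names state ChIP against input. The −log10 q is the peak's significance after correction. Both are the authors' peak caller's own values and are set side by side without dividing one list by the other. The 58 pseudogenes of the H3.3K27M list only had a median fold of 5.14 (range 2.64 to 10.95) and a median −log10 q of 5.43 (1.69 to 20.9). All unshared H3.3K27M peaks had a median fold of 4.59. The 20 pseudogenes of both lists had a median fold of 5.45 in H3.3K27M (2.86 to 46.9) and 6.04 in H3.3WT (2.39 to 50.2), and the H3.3K27M value was the higher one for 9 of them. These are not all separate or matching sites. Vmn2r-ps15 and Gm13243, both among the 9, share the same peak in each list. Gm3489 and Vmn2r-ps17, also among the 9, had their strongest summits over 1 kb apart in the lists. The 7 of the H3.3WT list only had a median fold of 3.61 (1.79 to 6.82). Over the whole lists the median fold was 5.63 in H3.3K27M and 6.21 in H3.3WT. The lowest 25% of each list by −log10 q held 30 of the 78 marked in H3.3K27M and 10 of the 27 marked in H3.3WT, and the highest 25% held 10 and 6.

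**Figure D2:**
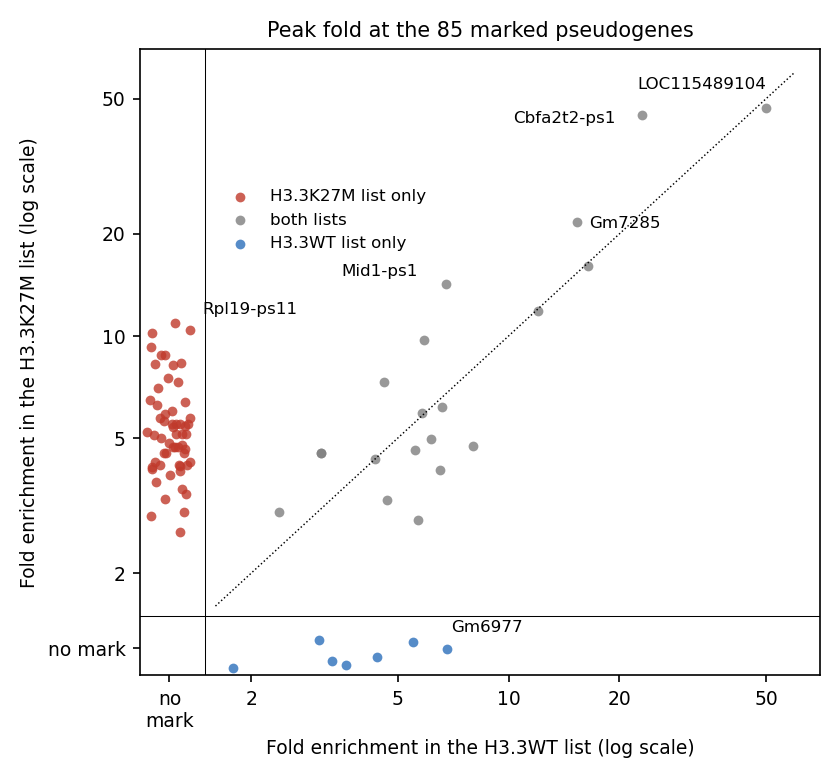
Fold enrichment at each of the 85 marked pseudogenes, H3.3K27M on the vertical and H3.3WT on the horizontal axis, both on a log scale, with pseudogenes lacking a mark in 1 list in the strip beside the axis (spread at random within it) and the dotted line marking equal folds. The 58 marked in the H3.3K27M list only lie between 2.64 and 10.95 fold, and LOC115489104 and Cbfa2t2-ps1 stand highest.

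The strongest peaks at pseudogenes were in both lists. LOC115489104 (chromosome X, 75582671 to 75705334) held the highest, with a fold of 46.9 in H3.3K27M and 50.2 in H3.3WT, ranks 21 and 16 of their lists. Its span is long and the peak covered 0.834% and 0.811% of it. Cbfa2t2-ps1, the single pseudogene named for the gene of the precipitated protein, had 44.9 fold in H3.3K27M and 23.0 in H3.3WT, ranks 24 and 206, and here the H3.3K27M peak covered 89.0% of the span. Gm7285, on chromosome 5 beside Mospd3, had 21.7 and 15.3 fold, and Gm44513 beside the zinc finger gene Zfp94 had 16.1 and 16.4 fold. Mid1-ps1, a copy of the ubiquitin ligase gene Mid1 on chromosome Y, had 14.2 fold in H3.3K27M and 6.76 in H3.3WT. Gm51685, inside Cox7a2, a gene of the respiratory chain, had 11.8 and 12.0 fold.

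Others of the named pseudogenes in both lists were lower. Gm1401, beside the exocyst gene Exoc4, had 9.74 fold in H3.3K27M and 5.90 in H3.3WT. Gm10060, with an annotated span of 105 bp, had 6.20 and 6.58 fold but −log10 q of 90.8 and 70.5. Gm19883 had 4.73 and 7.998 fold. Vmn2r-ps17 had 7.30 and 4.58 fold from summits 138140 bp apart within its 140140 bp span, so its place in both lists does not stand for 1 shared site. Of the 20, 15 had their strongest summits within 200 bp of each other in the 2 lists, and 3 over 1 kb apart. Of these 3, Vmn2r-ps17 was the one with no summit of the other list close to either peak. Gm3489 held 2 H3.3K27M peaks, and its H3.3WT summit lay 2 bp from the nearer H3.3K27M summit.

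Pseudogenes of the H3.3K27M list only were mostly short, and the peak sat on the copy itself. Their median span was 937.5 bp, compared with 2912 bp for those in both lists and 13601 bp for the 7 of the H3.3WT list only. Spans of up to 3 kb made up 54 of 58, 11 of 20 and 3 of 7 of these groups, and 87.3% of all 9944 pseudogenes. The summit lay inside the span for 55 of the 58, and at least 50% of the peak for 54. The peak covered a median of 59.0% of the span, against 12.3% for the H3.3K27M peaks of pseudogenes in both lists. A long span has more room for a summit, so span lengths are no test of the groups. The rule itself chose summits inside or within 250 bp of the span, and the covered share depends on span length. The place of the peaks on the copies is therefore a description only. For 56 of the 58 no H3.3WT summit lay within 1 kb of the H3.3K27M summit. The exceptions were H2ac14 at 409 bp and LOC108167485 at 251 bp. The 58 came from 57 distinct peaks, Mif-ps and LOC115486460 sharing 1, and lay on 20 of the 21 chromosomes with at most 6 on any.

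**Figure D3:**
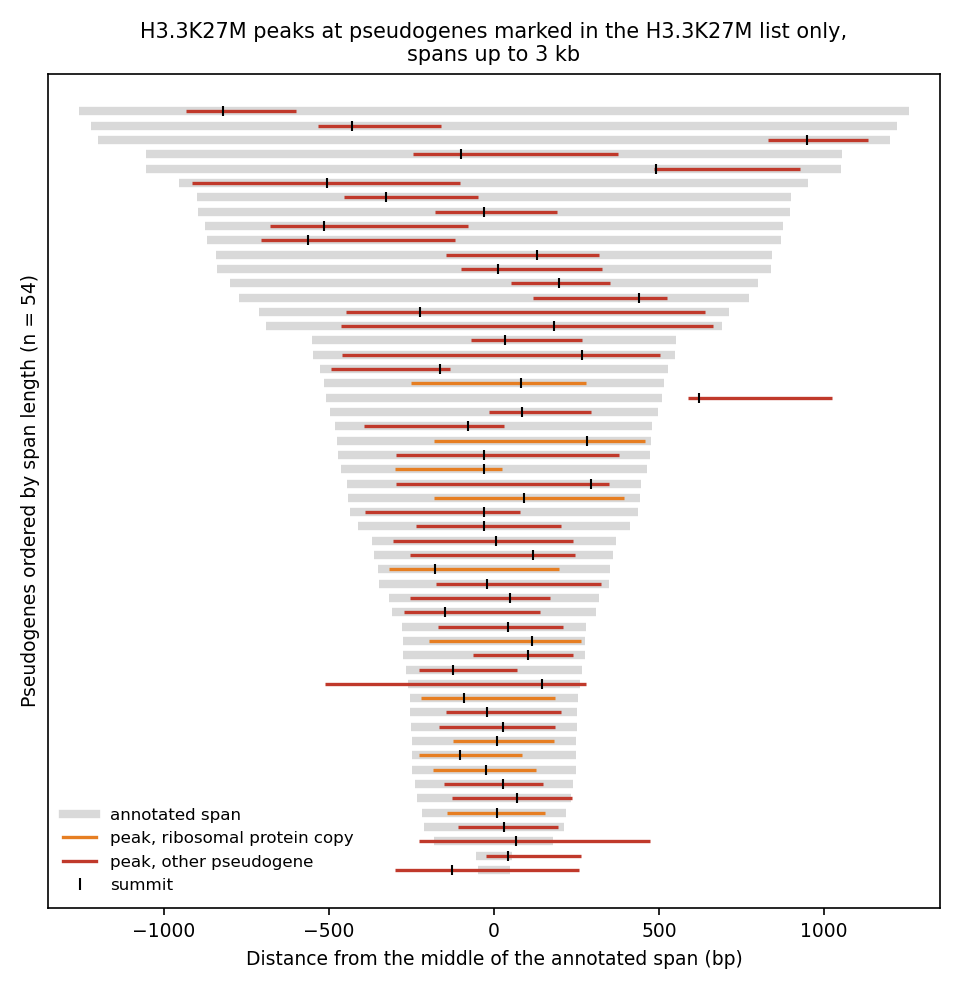
H3.3K27M peaks (coloured lines) and summits (black ticks) on the annotated spans (grey) of the 54 pseudogenes marked in the H3.3K27M list only with spans up to 3 kb, as distance from the middle of the span in bp, ordered by span length. Peaks mostly lie inside the grey spans, including those of ribosomal protein copies.

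Ribosomal protein pseudogenes were the family with the most marked members among those grouped by name. In H3.3K27M 11 of 319 were marked (3.45%, 1.94 to 6.07%), and in H3.3WT 0 of 319, which allows a share of up to 0.940%. Pseudogenes not placed in this family by name were marked at 0.696% in H3.3K27M and 0.281% in H3.3WT, 67 and 27 of 9625. Most of these name no parent, so they may include ribosomal protein copies that the names do not show. The 11 had a median fold of 8.32 and −log10 q from 4.28 to 17.3, all summits lay inside the span, and the nearest H3.3WT summit to any of them was 3017 bp away. The peaks covered 35.1 to 83.3% of spans that measured 436 to 1028 bp.

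The highest was Rpl19-ps11 (chromosome 8, 19492906 to 19493609), a copy of a gene of the large ribosomal subunit, with 10.95 fold in H3.3K27M. Rps3a2 on chromosome 14 followed with 10.4 fold, and Rps2-ps10, inside the phosphodiesterase gene Pde6a, with 9.28 fold. Rps16-ps2, inside the adhesion receptor gene Adgrd1, and Rpl31-ps8 on chromosome 15 both had 8.81 fold. Rpsa-ps10 on chromosome 3, a copy of the gene of a small-subunit protein also known as the laminin receptor, had 8.32 fold and lay 1084089 bp from the nearest coding gene end. The other 5 were Rps12-ps3 with 6.26 fold, Rps26-ps1 with 5.63, Rps2-ps6 with 5.22, and Rpl28-ps1 and Rps23-ps1 with 4.53 each. Rps23-ps1 lay 684 bp from the end of the coding gene Gm5148, and the other 10 lay over 1 kb from any coding gene end, 5 inside a coding gene and 5 elsewhere. Of parents with 10 or more copies, few copies were marked, 1 of 13 for Rpl19, 2 of 12 for Rps2, 1 of 23 for Rpl31, 1 of 24 for Rps12 and 1 of 12 for Rpsa. Parents with fewer copies had 1 of 4 marked for Rpl28, 1 of 2 for Rps16 and Rps23 each and the single copy for Rps26.

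**Figure D4:**
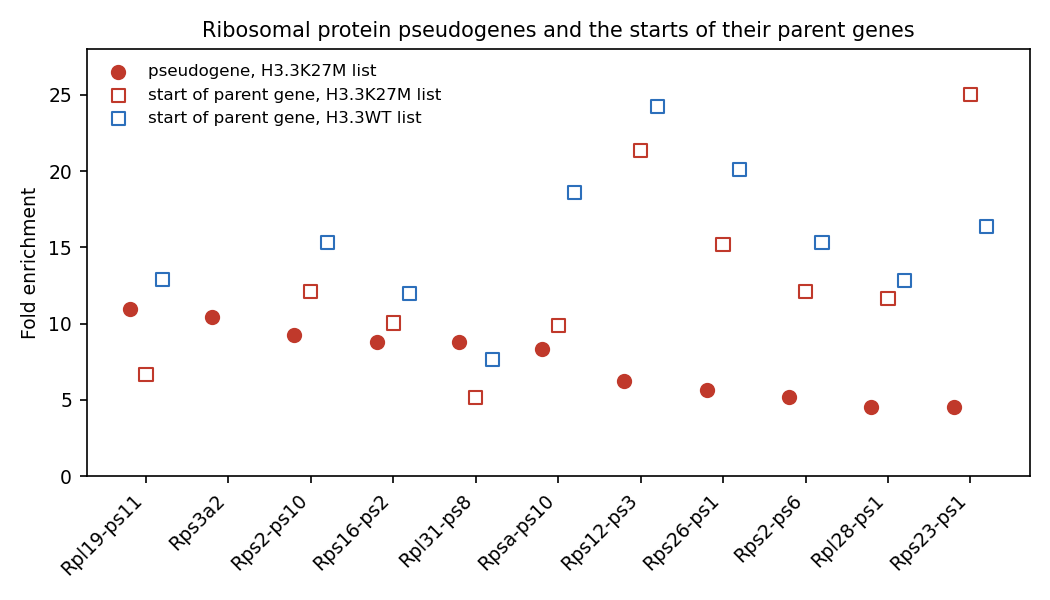
Fold enrichment of the H3.3K27M peak at each marked ribosomal protein pseudogene with the start peaks of its parent gene in the H3.3K27M and H3.3WT lists. The copies lie between 4.53 and 10.95 fold and have no H3.3WT peak, while the parents have a start peak in both lists. No parent could be read from the symbol Rps3a2.

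Their parent genes were marked in both genotypes. A parent could be read from the symbol for 10 of the 11 copies, giving 9 parent genes, and all 9 had a peak at their start in both lists. Parent folds were 5.16 to 25.0 in H3.3K27M (median 11.6) and 7.66 to 24.3 in H3.3WT (median 15.3), with summits at −249 to 118 bp from the RefSeq start in H3.3K27M and −228 to 124 bp in H3.3WT, negative values lying before the start. Rps12 had 21.4 fold in H3.3K27M and 24.3 in H3.3WT at its start, printed above, and Rps23 25.0 and 16.4. The RefSeq start used for Rps12, on the minus strand, is 23787209, while its annotated span runs to 23787383. Its summits therefore lie before that start but inside the annotated span. Rpl19 and Rpl31 were the parents with lower H3.3K27M folds than their copies, at 6.68 and 5.16. Over all 63 parent genes of ribosomal protein pseudogenes, marked or not, 60 had a peak within 1 kb of an end in each list, so a marked parent does not set the 9 apart.

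No marked copy was found in most other families grouped by name, whose sizes allow little to be read from a 0 when 0.784% of all pseudogenes were marked in H3.3K27M and 0.272% in H3.3WT. None of 74 chaperone and prolyl isomerase pseudogenes was marked in either list, which allows a share of up to 4.05%, although 10 of their 10 parent genes had a peak near an end in H3.3K27M and 9 in H3.3WT. None of 20 respiratory chain pseudogenes was marked, which allows up to 15.0%, with 9 and 8 of 9 parents marked, and none of 14 translation factor pseudogenes, which allows up to 21.4%, with 5 of 5 parents marked in both lists. These limits lie above the 3.45% of the ribosomal protein copies, so the families cannot be told apart from it at these counts. No glycolysis (15), high mobility group (15), zinc finger (13), mitochondrial ribosomal protein (6), splicing (5) or ubiquitin (10) pseudogene was marked, nor any of 58 of detoxification and secreted families. Among small non-coding RNA copies, the 27 that the name patterns caught were unmarked, but the patterns left out Rn5s-ps1, named for 5S rRNA, which was marked in the H3.3K27M list only at 2.95 fold. Of 598 chemosensory receptor pseudogenes, 2 were marked in both lists, Vmn2r-ps15 (4.53 fold in H3.3K27M and 3.09 in H3.3WT) and Vmn2r-ps17. The histone copy H2ac14 had 5.74 fold in H3.3K27M, and a H3.3WT summit of 5.22 fold lay 296 bp outside its span. Gm7809, a copy of the tropomyosin gene Tpm4, had 3.54 fold in H3.3K27M only. H3f3a-ps1 and H3f3a-ps2, copies of the deleted gene, were unmarked in both lists. Most marked pseudogenes, 62 in H3.3K27M and 24 in H3.3WT, could not be placed in a listed family by name. Their family is unknown where the symbol names no parent, so the family counts cover named copies only.

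A parent symbol could be read for 23 of the 85 marked pseudogenes (27.1%) and 1640 of all 9944 (16.5%). The 15 parent genes of copies marked in the H3.3K27M list only had a peak within 1 kb of an end in 14 cases in H3.3K27M (93.3%, 70.2 to 98.8%) and in 12 in H3.3WT (80.0%, 54.8 to 92.95%). Of these 15, 9 were the ribosomal protein genes above. Parents of unmarked pseudogenes, 341 genes, had one in 63.3% and 59.8%, and all protein-coding genes in 28.6% and 24.8%. These sets overlap, since a parent with marked and unmarked copies, such as Rps12 with 1 of 24 copies marked, counts in each. Cbfa2t2 and Mid1, parents of copies in both lists, had none within 1 kb of an end in either list. Among the parents outside the ribosomal family, the translationally controlled tumour protein gene Tpt1 had a start peak of 8.54 fold in H3.3K27M and 5.96 in H3.3WT, its copy Tpt1-ps3 2.64 fold in H3.3K27M. The thioredoxin gene Txn1 had 4.38 fold in H3.3K27M and no start peak in H3.3WT, and Txn-ps1 had 7.03 fold in H3.3K27M. Mif, a cytokine gene, had 4.90 and 4.20 fold, and Mif-ps 5.51 in H3.3K27M.

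Most of the remaining pseudogenes of the H3.3K27M list only carry a number in place of a gene name. Gm15427 on chromosome 1 had 10.2 fold with −log10 q of 19.2, Gm5905 8.26 fold, Gm6136, inside the exoribonuclease gene Dis3l2, 8.20 fold and Gm10073 6.49 fold. Gm13456, with 5.01 fold, had the highest −log10 q of the 58, at 20.9. The 7 marked in the H3.3WT list only were weaker. Gm6977 on chromosome X had 6.82 fold, Gm50266, inside the kinase gene Prkg1, 5.50, Gm8281 4.40, Gm28659 3.61, Gm23647 3.31, the kinase copy Mark4-ps 3.06 and the rRNA copy Rn18s-rs5 1.79. For all 7 no H3.3K27M summit lay within 1 kb.

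Few marked pseudogenes lay at the end of a coding gene. Within 1 kb of one lay 11 of the 78 marked in H3.3K27M (14.1%, 8.06 to 23.5%) and 7 of the 27 marked in H3.3WT (25.9%, 13.2 to 44.7%), while 64.5% and 65.7% of all peaks did. Among unshared peaks the shares were 48.5% and 38.1%. The rule ties each summit to a pseudogene span, so the shares of marked pseudogenes depend on where pseudogenes are annotated. The share of all pseudogenes that lie within 1 kb of a coding gene end was not computed. By group, 5 of 58 in the H3.3K27M list only, 7 of 20 in both lists and 0 of 7 in the H3.3WT list only lay there. Another 14, 3 and 1 lay inside a coding gene, and 39, 10 and 6 elsewhere. Ends are the outer ends of a gene, so a start within a gene, such as that of Cox7a2 at Gm51685, counts as inside. Of the 58, 25 lay over 50 kb from any coding gene end.

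**Figure D5:**
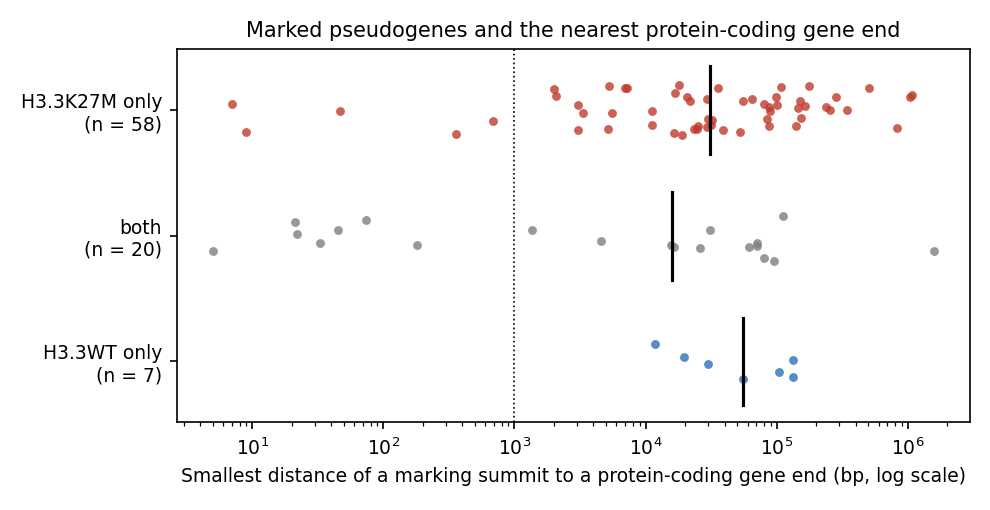
Distance from the peak summit to the nearest protein-coding gene end, in bp on a log scale, for marked pseudogenes by list, each point 1 pseudogene, black bars medians and the dotted line 1 kb. Those marked in the H3.3K27M list only range from 7 to 1084089 bp.

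At the 4 neighbour starts printed above, the pseudogene shared their peak with the neighbour. The Zfp94 peak beside Gm44513 had its summit at −15 bp from the RefSeq start in H3.3K27M and −27 bp in H3.3WT, and the Exoc4 peak beside Gm1401 at −86 and −83 bp. The Ppfia1 peak within Gm35626 lay at −42 bp and the Ivns1abp peak within Gm10138 at 7 bp, both in the H3.3K27M list only.

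Close to the limit of 250 bp, Gm7285 lay inside at 243 bp in H3.3K27M and 216 bp in H3.3WT. Just outside were Gm9176 at 283 bp (12.4 fold), Gm5655 at 295 bp (7.08 fold) and H2ac14 at 296 bp (5.22 fold), all in H3.3WT.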

How the data were processed

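CBFA2T2 peak lists of 2 of the 19 samples in the labels were used, 1 per genotype, grouped by genotype and antibody. The submitters' processing notes name Trim Galore (read trimming), MACS2 (peak calling) and the build mm10. The aligner, duplicate handling and settings are not given in the sources used here. The deposited names state ChIP against input, so nothing was pooled. The deposited score is the whole-number part of 10 × −log10 q in every row and was left aside. The deposited fold enrichment is a ratio from the authors' peak caller. The deposited −log10 p and −log10 q are theirs too, and the smallest −log10 q was 1.31 in H3.3K27M and 1.33 in H3.3WT, so weaker sites are not in the lists and a site near that level can be in 1 list by a small margin.

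Spans and types came from RefSeq GRCm38.p6 and give no strand, and starts came from its promoter table. The marking peak with the highest −log10 q stood for a pseudogene. Shared peaks overlap by at least 1 bp. Parents were read by a fixed pattern from symbols or, failing that, synonyms, and matched to coding genes by symbol or unique synonym. The 18 families were read by fixed patterns from the parent or, without one, the symbol. Shares carry 95% Wilson intervals, and an upper limit at 0 is 3 of the total. Python 3.11.15 and pandas 2.3.3 were used, and the marking was tested on simulated peaks. Named pseudogenes are the 10 of highest fold per list, the 10 of highest −log10 q of each list only, up to 4 per family, the 10 of highest fold away from coding ends, copies of the manipulated genes and the 3 nearest either side of the limit. One pseudogene that this rule picks is not reported here. Others were named after their values were seen. Members and lists were chosen with earlier results of these data known.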

Additional observations from a re-analysis of the deposited data

How the results depend on the processing

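Of 78 values computed under alternative settings, 66 stayed close to the main value and 12 moved, where close means within 1.5 times for a count and inside the 95% Wilson interval of the main value for a share. With −log10 q of at least 5, the H3.3K27M list marked 50 pseudogenes and 36 were in that list only. With a fold of at least 5, the H3.3K27M list marked 42, the H3.3WT list 16, both 9 and the H3.3K27M list only 33, and the share of parents with a peak in H3.3K27M was 58.3%, against 82.4% in the main setting. With a window of 1 kb, 54 were marked in H3.3WT, 42 in both and 12 in the H3.3WT list only. With the summit inside the span, both lists shared 12, and with summits over 1 kb from coding ends 13. Under all 8 settings tried, ribosomal protein pseudogenes numbered 8 to 12 in H3.3K27M and 0 in H3.3WT. Only the window of 1 kb and any overlap of peak and span could have raised the 0 in H3.3WT. The other settings only removed peaks or marks or left the H3.3WT list whole, so their 0 was fixed in advance. These 0 values are among the 66 that stayed close. For this family the settings were not planned in advance. No paired analysis was possible because each genotype had 1 library. Peaks under the caller's threshold were not seen, so a missing mark does not show a lack of binding, and without read counts the part of depth in the differences was not tested.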

Other observations

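RefSeq types 485 further genes as transcribed pseudogenes, which were not part of the counts above. Of these, 29 were marked, 26 in H3.3K27M (5.36%) and 18 in H3.3WT (3.71%), and 11 of the 29 in the H3.3K27M list only (37.9%, 22.7 to 56.0%). Zfp133-ps, a zinc finger copy, had the highest fold among those in both lists, with 15.4 in H3.3K27M and 24.1 in H3.3WT. Fbxl12os had 11.3 and 6.86 fold, and the phosphatidylserine decarboxylase copies Pisd-ps1 and Pisd-ps2 had 8.74 and 6.76 fold in H3.3K27M and 6.98 and 6.54 fold in H3.3WT. In the H3.3K27M list only, Gm6787 had 9.39 fold, Gm10653 8.81, 4632415L05Rik 8.20, Erdr1 7.47, H2af-ps2 7.30 and the ribosomal protein copy Rps6-ps4 7.08. In the H3.3WT list only, Zxda had 5.01 fold, Zfp862-ps 4.12 and Gm6981 3.51.

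Measured from the middle of the span, the nearest coding gene end belonged to a gene with a Zfp symbol, the zinc finger proteins, for 9 of the 85 marked pseudogenes (10.6%) and for 253 of all 9944 (2.54%). The 9 stand for 7 H3.3K27M peaks, since Mif-ps with LOC115486460 and Vmn2r-ps15 with Gm13243 were each marked by 1 shared peak. Nor are they spread over separate places. Vmn2r-ps15, Gm13243, Vmn2r-ps17 and Gm13136 all lie on chromosome 4 between 145701675 and 147738969, and Gm44513 was marked by the start peak of Zfp94. The difference in shares was not tested. In the 5S rRNA gene cluster of chromosome 8 (123538784 to 123622046), 3 of 48 rRNA genes were marked in H3.3K27M and 1 in H3.3WT. In or next to it, the pseudogene Rn5s-ps1 was marked in H3.3K27M only, at 2.95 fold, and Gm23647 in H3.3WT only.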
